A study of Homo sapiens with 6 samples.

Results

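Genes that cells switch on when oxygen is short were followed in SW480 cells before and after the induction of KIAA1199, a protein that is abundant in human colorectal tumors. The 9 genes were HIF1A, EGLN3, ALDOC, PDK1, BNIP3, CA9, VEGFA, ADM and NDRG1. They were taken by their Ensembl gene identifiers from textbook knowledge of the hypoxia response, with earlier results of these data known. All 9 were found among the 26445 probe sets of the series, each probe set being the summary of the array probes of 1 gene. SW480 is a human colon cancer cell line. The cells of both groups were a single clone, Clone 13, which carries a tetracycline repressor and a KIAA1199 construct under its control. By the study's methods, such cells were selected with blasticidin S for the repressor and then with G418 for the construct.

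The uninduced group held 3 arrays of cells without doxycycline. The doxycycline group held 3 arrays of cells given doxycycline for 48 h, so that KIAA1199 was expressed. The labels' treatment field gives 50 ng/ml and 48 h on all 6 samples, the uninduced ones included, so it does not separate the groups, which were taken from the sample titles, and the study's methods give a range of doses for its clones that begins at this one. The study's methods describe 3 independent experiments. Arrays with the same replicate number, 1 to 3, were taken as the pair of 1 experiment, which the titles do not state. No array came from doxycycline-treated cells without the construct, so the effects of the drug and of the protein cannot be told apart in these data. The study's methods cite earlier work in which such doses left array transcript levels unaffected, which was not tested here. Neither the labels nor the study's methods mention low oxygen for any culture. The values were log2 expression levels from exon arrays, in which a difference of 1 is a doubling, and the median level was 5.66 on every array. A higher level of one gene than of another was not read as more RNA, because probes differ in brightness.

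Cells sense oxygen through HIF, a transcription factor made of an alpha subunit such as HIF1A and a stable partner. In the presence of oxygen, prolyl hydroxylases of the EGLN family mark the alpha subunit for destruction by the VHL ubiquitin ligase, so HIF1A is controlled mostly as a protein and less through its mRNA. When oxygen falls, HIF enters the nucleus, binds short elements in the DNA and raises genes for glycolysis, acid export, mitochondrial turnover and new blood vessels. Many colorectal tumors contain poorly oxygenated regions in which this program runs.

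The core letters of the HIF-binding element are ACGTG or GCGTG on either strand, which read CACGT and CACGC on the opposite strand. They were looked up in RefSeq promoter windows (build GRCh38.p14) that reach from 250 bases before to 50 bases after a transcript start. Windows were listed for 7 of the 9 genes, 9 windows in all, since HIF1A and PDK1 had a second start. VEGFA and NDRG1 had no entry. ACGTG was present in windows of ALDOC, BNIP3, CA9 and PDK1, and in 21.4% of all 35116 windows. GCGTG was present in windows of ADM, ALDOC, BNIP3 and HIF1A, and in 36.5% of all windows, while the EGLN3 window held neither. The stretches below show the ACGTG matches that lie, with their flanks, before the start. Capitals mark the core as it reads along the gene's own strand, and in the distal ALDOC stretch and in BNIP3 the capitals are part of CACGTG, which reads the same on both strands and so overlaps a second match. The PDK1 stretch holds another CACGT, from base -8, which is left in lower case.
CA9 (chr9:35673898-35673926, + strand, core from base -18): tcgtttccaatgCACGTacagcccgtaca
BNIP3 (chr10:131982040-131982068, - strand, core from base -133): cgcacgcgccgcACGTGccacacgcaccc
ALDOC, distal (chr17:28577118-28577145, - strand, core from base -239): aagtgcccggcACGTGgtaaagggattg
ALDOC, proximal (chr17:28576907-28576935, - strand, core from base -28): ccccggaggagtCACGTagctctgcgaca
PDK1, second start (chr2:172556061-172556089, + strand, core from base -17): cctgctgcccgcCACGTccctcacgtacc
These matches describe the sequence and do not show that HIF was bound there. The 4 genes that carried ACGTG had log2 fold changes with doxycycline of 0.16 (ALDOC), -0.06 (BNIP3), 0.06 (CA9) and 0.06 (PDK1), none of which passed the limits given below.

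None of the 9 genes changed past the limits used in the study, that is, p below 0.025 before adjustment and a change of 1.2-fold or more (0.26 on the log2 scale). In limma with the experiment as a block, 0 of 9 were raised, where 2.9% of all probe sets were, and 0 of 9 were lowered, where 2.94% were. In either direction the limits were passed by 5.83% of all probe sets, a share that is less than 1 gene in 9, so a count of 0 lies close to the background. The methods' t-test, which is paired and 2-sided, also placed 0 of 9 past the limits, against 2.18% of all probe sets. At an unadjusted p under 0.05, limma placed 0 of the 9 genes and 12.3% of all probe sets. At a Benjamini-Hochberg adjusted p under 0.05 over all probe sets it placed 0 of 9, and 0% of all probe sets. The design with 3 pairs cannot give a p under 0.25 in an exact sign-flip permutation test, so for single genes the differences and their 95% intervals from limma carry the comparison.

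**Figure D1:**
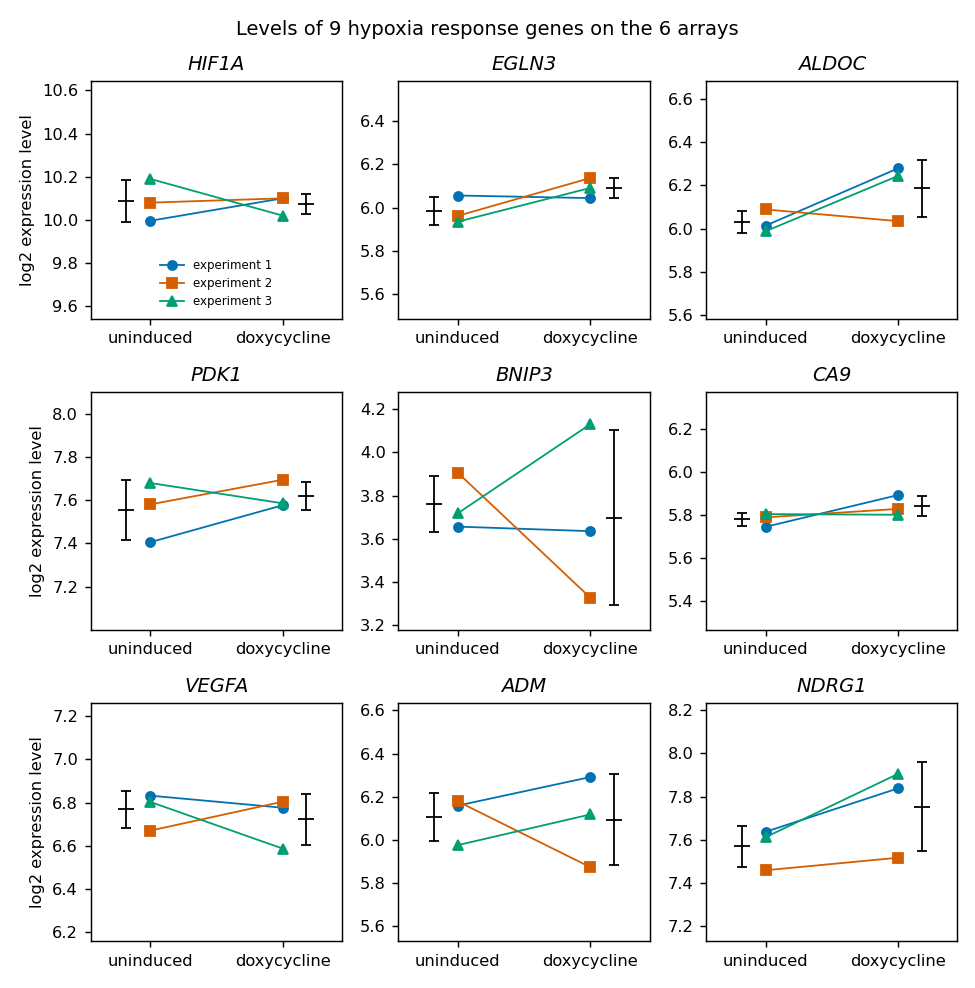
Log2 expression level of each gene (vertical axis, every panel spanning the same range) on the uninduced and doxycycline arrays, with a line for each of the 3 experiments and black bars for the mean and SD of the 3 arrays per group. The 3 lines run in the same direction only in the panel of NDRG1, and in all 9 panels the groups overlap.

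HIF1A (ENSG00000100644_at), the oxygen-regulated subunit itself, had log2 levels of 10.00, 10.08 and 10.19 without doxycycline in experiments 1, 2 and 3 and of 10.10, 10.10 and 10.02 with it. The doxycycline arrays lay inside the range of the uninduced ones. The means were 10.09 ± 0.10 (SD, n = 3) and 10.07 ± 0.05 (SD, n = 3), a log2 fold change of -0.02 with a 95% interval from -0.25 to 0.21 (limma, adjusted p = 0.96). That interval stays within a change of 1.2-fold in either direction, from 0.844-fold to 1.16-fold. In these bulk RNA samples, less RNA per cell and fewer cells that express a gene cannot be told apart.

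EGLN3 (ENSG00000129521_at) encodes a prolyl hydroxylase that marks HIF alpha subunits and is itself a HIF target. Its log2 levels were 6.06, 5.96 and 5.93 without doxycycline and 6.04, 6.14 and 6.09 with it. The groups overlapped only through experiment 1, where the doxycycline array lay below its uninduced partner, while experiments 2 and 3 showed differences of 0.17 and 0.16. The mean went from 5.98 ± 0.06 to 6.09 ± 0.05 (SD, n = 3 each), a log2 fold change of 0.11 with a 95% interval from -0.10 to 0.31 (limma, adjusted p = 0.62).

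ALDOC and PDK1 act in glucose metabolism. ALDOC (ENSG00000109107_at) encodes an aldolase, which splits a glycolytic sugar phosphate, and its log2 levels were 6.01, 6.09 and 5.99 without doxycycline and 6.28, 6.03 and 6.24 with it. Experiments 1 and 3 thus showed differences of 0.27 and 0.26, and experiment 2 one of -0.05, so its doxycycline array fell within the uninduced range. The mean log2 fold change was 0.16 with a 95% interval from -0.11 to 0.42 (limma, adjusted p = 0.57).

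PDK1 (ENSG00000152256_at) encodes a kinase that shuts the pyruvate dehydrogenase complex and so keeps pyruvate out of the mitochondria. Its log2 levels were 7.41, 7.58 and 7.68 without doxycycline and 7.58, 7.70 and 7.59 with it. The 3 uninduced arrays were spread more widely (SD 0.14, n = 3) than the doxycycline arrays (SD 0.07, n = 3), and the difference was 0.17 in experiment 1, 0.11 in experiment 2 and -0.09 in experiment 3. On average this came to a log2 fold change of 0.06 with a 95% interval from -0.17 to 0.29 (limma, adjusted p = 0.80).

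BNIP3 (ENSG00000176171_at), a mitochondrial outer membrane protein that recruits the autophagy machinery, varied most. Its log2 levels were 3.66, 3.90 and 3.72 without doxycycline and 3.63, 3.33 and 4.13 with it, so the doxycycline arrays of experiments 2 and 3 held both the lowest and the highest of the 6 values. The differences were -0.02, -0.58 and 0.41. Their mean of -0.06 had a 95% interval from -0.65 to 0.52 (limma, adjusted p = 0.93), or from 0.638-fold to 1.44-fold, the widest among the 9 genes. BNIP3 was also the only one of them in the dimmest 25% of the array by mean signal, where the median SD between experiments was 0.24.

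CA9 (ENSG00000107159_at), a carbonic anhydrase on the cell surface that handles acid outside the cell, varied least. Its log2 levels were 5.75, 5.79 and 5.80 without doxycycline and 5.89, 5.83 and 5.80 with it. The difference was 0.15 in experiment 1, 0.04 in experiment 2 and -0.003 in experiment 3, and the lowest doxycycline array met the highest uninduced one. The mean log2 fold change was 0.06 with a 95% interval from -0.13 to 0.25 (limma, adjusted p = 0.76). Like that of HIF1A, this interval lies within a change of 1.2-fold in either direction, which holds for these 2 genes of the 9.

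VEGFA and ADM encode secreted factors that act on blood vessels, a growth factor for endothelial cells and a vasodilator peptide. The log2 levels of VEGFA (ENSG00000112715_at) were 6.83, 6.67 and 6.80 without doxycycline and 6.78, 6.80 and 6.59 with it. The sign of the difference changed between experiments, with -0.06, 0.13 and -0.22. The mean log2 fold change was -0.05 with a 95% interval from -0.30 to 0.21 (limma, adjusted p = 0.88).

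ADM (ENSG00000148926_at) had log2 levels of 6.16, 6.18 and 5.98 without doxycycline and of 6.29, 5.87 and 6.12 with it. Experiments 1 and 3 showed differences of 0.13 and 0.14, and experiment 2 a difference of -0.30 that cancelled them. The mean log2 fold change was -0.01 with a 95% interval from -0.34 to 0.32 (limma, adjusted p = 0.98). The doxycycline arrays were spread around 6.09 with an SD of 0.21 (n = 3), against 0.11 (n = 3) for the uninduced ones.

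NDRG1 (ENSG00000104419_at), a cytoplasmic protein induced by hypoxia and during differentiation, showed the largest mean difference among the 9 genes. Its log2 levels were 7.64, 7.46 and 7.61 without doxycycline and 7.84, 7.52 and 7.91 with it. The array with doxycycline was above its partner in all 3 experiments, by 0.20, 0.06 and 0.29. The groups still overlapped, because the doxycycline array of experiment 2 lay below the uninduced arrays of experiments 1 and 3. The mean went from 7.57 ± 0.10 to 7.75 ± 0.21 (SD, n = 3 each), a log2 fold change of 0.18, or 1.14-fold, with a 95% interval from -0.03 to 0.40 (limma, unadjusted p = 0.075, adjusted p = 0.45). The exact sign-flip permutation test over the 3 pairs gave p = 0.25, the smallest it can give. Of all probe sets, 72.8% had a smaller absolute change. NDRG1 was the only gene of the 9 with the same sign in all 3 experiments, a pattern that 36.5% of all probe sets showed.

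**Figure D2:**
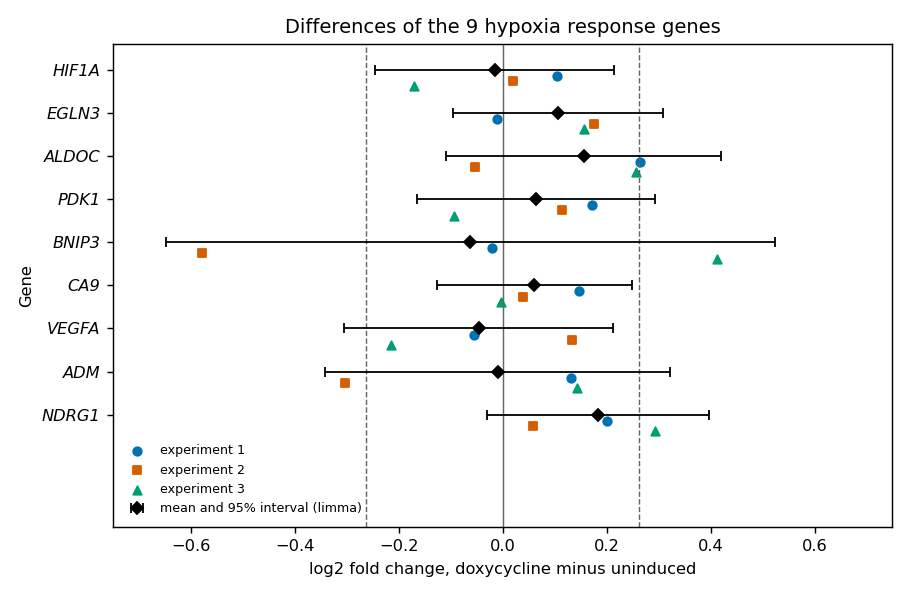
Log2 fold change, doxycycline minus uninduced, of each gene, with the limma mean and its 95% interval as a black diamond and bar, and the difference in each experiment as a colored mark. Dashed lines stand at a change of 1.2-fold in either direction. All 9 intervals include 0, and the 3 experiments lie on the same side of 0 for NDRG1 alone.

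As a group, 5 of the 9 genes had a higher mean with doxycycline and 4 a lower one, and 50.5% of all probe sets had a higher mean. The median log2 fold change of the 9 genes was 0.06, against 0.00 over all probe sets. Their median absolute log2 fold change was 0.06, against 0.10 over all probe sets. For scale, the largest rise past the limits on the arrays, at ENSG00000103888_at, was a log2 fold change of 1.83, with levels of 7.76, 7.63 and 7.90 without doxycycline and 9.60, 9.23 and 9.96 with it. No table used here pairs that identifier with a gene symbol. In the study's own list of changed genes, the largest rise was that of KIAA1199.

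**Figure D3:**
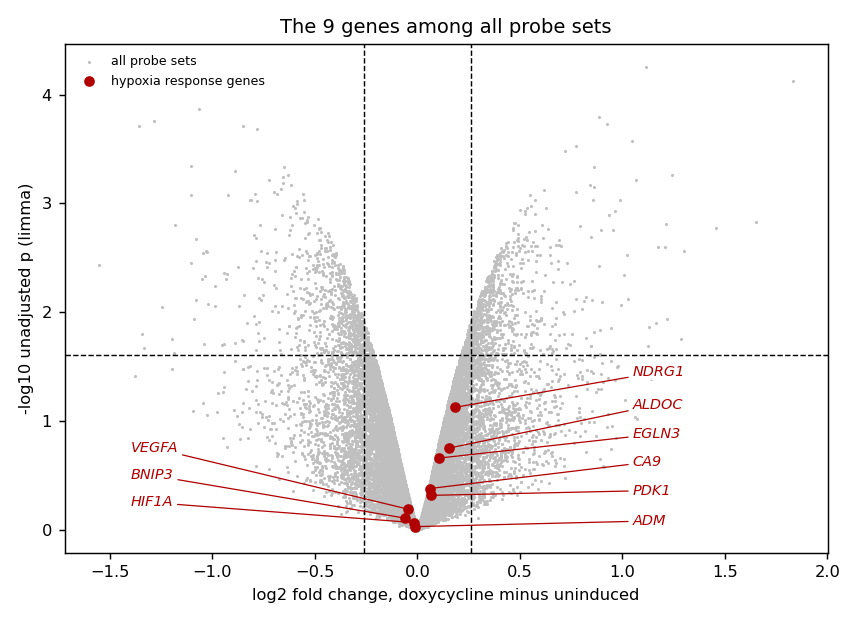
Log2 fold change (horizontal axis) against -log10 of the unadjusted limma p (vertical axis) for all 26445 probe sets in gray and the 9 genes in red. Dashed lines mark a p of 0.025 and a change of 1.2-fold in either direction. The 9 genes lie between the vertical lines and below the horizontal one, with NDRG1 nearest to the limits.

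In experiment 1, 6 of the 9 genes were higher with doxycycline, with a median difference of 0.13, against 49.1% of all probe sets and a median of -0.004, and VEGFA, BNIP3 and EGLN3 were lower. In experiment 2, 6 of 9 were higher as well, with a median of 0.04, against 51.0% of all probe sets and a median of 0.006, and the 3 that were lower were ADM, BNIP3 and ALDOC. In experiment 3, 5 of 9 were higher, with a median of 0.14, against 51.2% of all probe sets and a median of 0.007, and HIF1A, VEGFA, PDK1 and CA9 were lower. The doxycycline array of experiment 3 held the lowest VEGFA value of the 6 arrays and the highest NDRG1 and BNIP3 values. Both signs thus occurred among the 9 genes in every experiment, and the genes on the lower side differed between experiments, with BNIP3 shared by experiments 1 and 2 and VEGFA by experiments 1 and 3.

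The SD of the 3 differences ranged from 0.08 in CA9 to 0.50 in BNIP3 and had a median of 0.14, the same as over all probe sets. In 7 of the 9 genes this SD was larger than the absolute mean difference, the exceptions being NDRG1 and EGLN3. The groups did not overlap in 0 of the 9 genes, against 16.6% of all probe sets. The 95% intervals bound what the 3 pairs leave possible. In 8 of the 9 genes they stayed within a change of 1.5-fold in either direction, and that of BNIP3 reached beyond it on the lower side. They reached 1.2-fold or more on at least one side in 7 of the 9, so the data of those genes are compatible with a change of that size as well as with none.

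**Figure D4:**
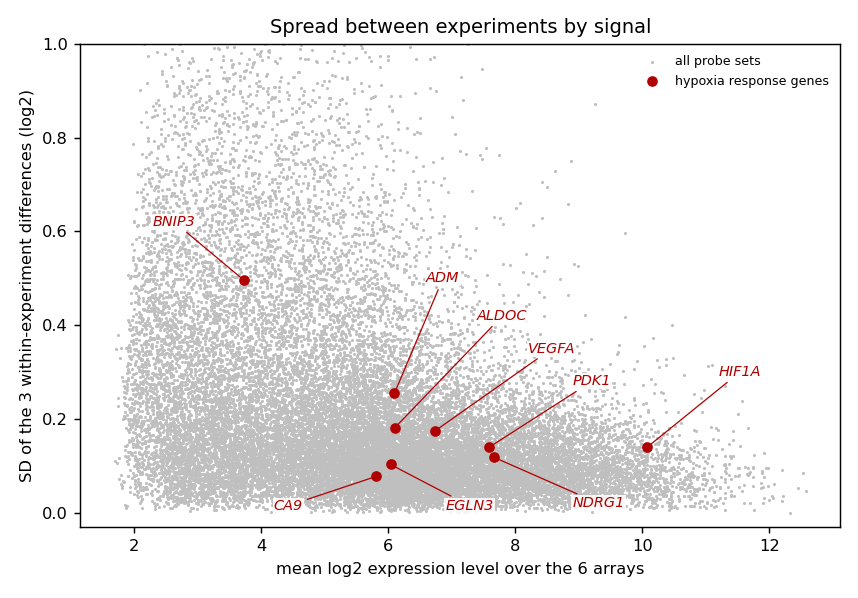
SD of the 3 within-experiment differences (vertical axis, log2) against the mean log2 expression level over the 6 arrays (horizontal axis) for all probe sets in gray and the 9 genes in red, with 350 probe sets above the plotted range. BNIP3, at 0.50, stands above the other 8 genes, which lie between 0.08 and 0.25.

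NDRG1 was compared over the 6 arrays with the 7 other genes whose mean level lay above the median of all probe sets, as the probe sets that could be named. By Pearson's r, ALDOC was the most alike (r = 0.79, exact permutation p = 0.089, Spearman's rho = 0.43, exact permutation p = 0.42), followed by ADM (r = 0.45, rho = 0.20) and CA9 (r = 0.37, rho = 0.14). By Spearman's rho the order differed, with EGLN3 (r = 0.29, rho = 0.26) after ALDOC. Adjusted over the 7 comparisons, the exact p for ALDOC was 0.62 for r and 0.80 for rho. Without the 2 arrays farthest from the median of NDRG1, the doxycycline arrays of experiments 1 and 3, r with ALDOC was -0.90, so the relation rests on those arrays. The same removal took r to -0.02 for ADM, -0.49 for CA9 and -0.03 for EGLN3. For VEGFA, r went from -0.37 to 0.84, so the order above holds only with all 6 arrays. The exact p-values treat the 6 arrays as exchangeable, although these form 2 groups in 3 paired experiments, so a shift shared by a group or an experiment enters r.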

How the data were processed

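Total RNA from 6 samples was hybridized to Affymetrix Human Exon arrays. The deposited values are log2 expression levels per Ensembl gene, which the authors made with RMA (named in the submitters' processing notes, version not given in the sources used here), and which share 1 distribution over the arrays. Groups and replicate numbers came from the sample titles, and the replicate numbers were taken as experiment numbers. All per-sample columns were used, and no probe set was removed.

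Levels were fitted for all 26445 probe sets with limma 3.58.1 in R 4.3.3 (lmFit, eBayes), with the experiment as a block as in the study's paired test. P-values are 2-sided, with Benjamini-Hochberg adjustment across the whole table. The fit was tested on simulated data. The alternatives changed the block, test, normalization, low-level filter, variance prior or fold minimum, or left out an experiment.

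The 9 genes and the lists were chosen with earlier results of these data known. The rule for named genes was all 9 members, listed pathway genes past the limits, and the genes most like the member with the largest change. None (0) of 132 other listed genes (HIF subunits, further targets, cell type markers and the KIAA1199 gene) could be matched by symbol to an Ensembl identifier in the tables. None of these was therefore analysed here by name.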

Additional observations from a re-analysis of the deposited data

How the results depend on the processing

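None of the 9 genes passed the limits of the study in any of the 13 alternatives run for that count. With all experiments kept, only the removal of the level trend could shift a log2 fold change by more than rounding, since the block, the test and the variance priors leave the mean difference as it is and the arrays already share 1 distribution. After that removal NDRG1 was at 0.18, and the median of the 9 was 0.06, with no sign changed. BNIP3 has no value once the dimmest 25% of the array is left out. The lowest unadjusted p of any of the 9 genes was 0.04, for NDRG1 with a variance prior that depends on the level.

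With each experiment left out in turn, the log2 fold change lay between -0.075 and 0.062 for HIF1A, -0.14 and 0.04 for VEGFA, -0.086 and 0.137 for ADM, and -0.30 and 0.20 for BNIP3. HIF1A and VEGFA turned positive without experiment 3 (0.062 and 0.039), and ADM and BNIP3 without experiment 2 (0.14 and 0.20). The other 5 stayed positive, NDRG1 between 0.13 and 0.25, ALDOC between 0.10 and 0.26, EGLN3 between 0.07 and 0.17, CA9 between 0.02 and 0.09 and PDK1 between 0.01 and 0.14, and the median of the 9 between 0.01 and 0.08.

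The count of all probe sets past the limits was 1543. It was 577 in the methods' t-test and 238 at 1.5-fold or more, and between 986 (without experiment 3) and 1344 with 1 experiment left out, with 994 without experiment 2. The causes of these differences in count were not tested. Without the replicate block the count was 1050, and NDRG1 had an adjusted p of 0.64 in limma at the same log2 fold change of 0.18. Over the probe sets, the deviations of same-numbered arrays from their group means had correlations of 0.039, 0.049 and 0.13, against -0.092 to 0.044 for arrays of different numbers. The ranges overlap and not all same-numbered values are above 0.1, and the block follows the study's paired test. Dim probe sets could not be judged against background, since detection calls were not used here.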
